A study of Mus musculus with 13 samples.

Results

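The transcripts of 9 genes of the transforming growth factor (TGF)-beta pathway were quantified by RNA sequencing of T cells that had been sorted out of subcutaneous tumors of the mouse melanoma line B16-F10. The 9 genes, taken by symbol from a table of 12963 genes, were the ligand Tgfb1, the receptors Tgfbr1 and Tgfbr2, the signal transducers Smad2, Smad3 and Smad4, the inhibitory Smad7, and the corepressors Ski and Skil. All 13 libraries came from adult Foxp3-EGFP-DTR mice, in which the Foxp3 locus drives a green fluorescent protein and the diphtheria toxin receptor. Diphtheria toxin (DTx) therefore kills Foxp3+ regulatory T (Treg) cells in them, while PBS is the control injection. PBS-treated mice gave EGFP+ Treg cells (Treg PBS, n = 3), EGFP- conventional CD4+ cells (CD4 PBS, n = 2) and CD8+ cells (CD8 PBS, n = 2). DTx-treated mice gave the last 2 kinds only (CD4 DTx and CD8 DTx, n = 3 each). CD4+ conventional and CD8+ cells together are called Tconv below. The PBS libraries of CD4+ and CD8+ cells carried the replicate numbers 2 and 3, with no replicate 1. The labels do not say whether a library was made from 1 animal or from a pool, so p-values measure the spread between libraries.

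TGF-beta is secreted in a latent form and, once released, binds the type II receptor TGFBR2, which recruits and phosphorylates the type I receptor TGFBR1. TGFBR1 then phosphorylates SMAD2 and SMAD3, which join SMAD4, enter the nucleus and act on target genes. SMAD7 blocks the type I receptor and is itself a target gene, and SKI and SKIL (SnoN) bind the SMAD complex and hold its targets silent until they are degraded. In T cells the pathway is known for restraining effector differentiation and for inducing Foxp3 and the residency integrin CD103.

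The labels were first checked against the sorted populations. Foxp3 lay between 1178 and 1896 normalised reads in Treg PBS and between 0 and 12.1 in the other 4 groups. Cd4 was at 10595 or above in every CD4+ and Treg library and at 413 or below in the CD8+ libraries, and Cd8a was at 23475 or above in the CD8+ libraries and at 1302 or below elsewhere. Normalised reads are reads per gene divided by 1 factor per library, and the libraries held 15947556 to 34140486 reads over the listed genes. Replicate 3 of every group held Y-linked transcripts (summed level 7193 to 9389, against at most 0.935 in the other 8 libraries) and no Xist, so each group held 1 library from male tissue. Fos, an immediate early gene, was also far higher in replicate 3 of the PBS groups, where Treg PBS had 38019, CD4 PBS 54781 and CD8 PBS 54646, against 427 to 5052 in their other libraries. The result without the 5 libraries numbered 3, and without the 3 numbered 1, is therefore given beside each difference of the 9 genes that passed the test, and beside the counts of the gene lists described, as alternatives chosen after seeing the data.

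The 5 T cell marker genes summed to 111581 to 172502 normalised reads per library, and transcripts of other cell types were present beside them. The 4 of 5 melanocyte markers in the table, all above 0 somewhere in each group, summed to 727 to 1197 (Treg PBS), 435 to 448 (CD4 PBS), 171 to 629 (CD8 PBS), 89.0 to 170.2 (CD4 DTx) and 60.7 to 124.7 (CD8 DTx). All 9 myeloid markers were in the table and summed to 1207 to 4100 (Treg PBS), 1350.2 to 1565 (CD4 PBS), 686 to 2248 (CD8 PBS), 137 to 2302 (CD4 DTx) and 1896 to 2759 (CD8 DTx). Among them Itgam averaged 1224 ± 617 and Cd68 899 ± 253 in CD8 DTx, against 109 ± 136 and 199 ± 106 in CD8 PBS. The mean of Adgre1 was also higher in CD8 DTx (33.5 against 10.3). Those of Lyz2 (148 ± 84 against 909 ± 582), Csf1r, C1qa, C1qb, C1qc and Cd14 were lower in CD8 DTx than in CD8 PBS. The 2 NK cell markers, Ncr1 and Klrb1c, summed to 5.89 to 16.9 (Treg PBS), 45.6 to 275 (CD4 PBS), 243 to 3069 (CD8 PBS), 175 to 534 (CD4 DTx) and 309 to 5111 (CD8 DTx). The 4 B cell markers summed to 441 to 948 (Treg PBS), 147 to 272 (CD4 PBS), 794 to 853 (CD8 PBS), 92.6 to 158.5 (CD4 DTx) and 276 to 1296 (CD8 DTx). The 3 erythroid markers summed to 1844 to 3216 (Treg PBS), 948 to 6567 (CD4 PBS), 1596 to 6570.2 (CD8 PBS), 0 to 1175 (CD4 DTx) and 16.6 to 791 (CD8 DTx). Pecam1, an endothelial marker that T cells also express, was at 7092 and 7291 in the CD4 PBS libraries, at 3762 and 3865 in those of CD8 PBS and at 2719 or below elsewhere. Pdgfrb, a stromal marker, was at 0 in every Treg PBS, CD4 PBS and CD8 PBS library. The part of such cells in the differences below was not tested, and in bulk samples fewer cells of a type cannot be told apart from less RNA per cell.

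Promoter windows of 5 of the 9 genes were examined. Of these, 3 are shown because Tgfbr2 and Ski varied together across the libraries while Tgfb1 did not pass the test. Each is the 250 bases upstream of the RefSeq start in GRCm38.p6, read 5′ to 3′ on the gene's strand, with capitals marking CAGAC, the short SMAD-binding element, or GGGCGG, a GC box, on either strand. The motifs shared no base in these windows.
Tgfbr2, chr9:116175364-116175613, minus strand: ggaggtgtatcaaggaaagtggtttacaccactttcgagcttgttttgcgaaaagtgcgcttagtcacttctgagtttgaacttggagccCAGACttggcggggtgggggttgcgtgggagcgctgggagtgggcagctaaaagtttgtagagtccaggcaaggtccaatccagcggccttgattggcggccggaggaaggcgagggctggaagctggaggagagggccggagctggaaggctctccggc
Ski, chr4:155222536-155222785, minus strand: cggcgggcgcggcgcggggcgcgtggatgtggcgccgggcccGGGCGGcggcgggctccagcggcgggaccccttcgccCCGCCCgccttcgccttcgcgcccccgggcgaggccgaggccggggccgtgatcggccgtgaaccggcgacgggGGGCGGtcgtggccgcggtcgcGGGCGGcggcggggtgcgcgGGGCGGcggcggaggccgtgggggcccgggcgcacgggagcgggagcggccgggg
Tgfb1, chr7:25686752-25687001, plus strand: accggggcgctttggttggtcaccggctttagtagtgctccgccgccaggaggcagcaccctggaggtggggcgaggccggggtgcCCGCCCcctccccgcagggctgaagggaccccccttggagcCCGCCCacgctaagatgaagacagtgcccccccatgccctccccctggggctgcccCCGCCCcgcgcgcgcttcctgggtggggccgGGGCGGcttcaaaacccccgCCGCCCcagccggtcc

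CAGAC was present in the Tgfbr2 window, starting 160 bases before the start site, and these letters were not in the Ski and Tgfb1 windows. It was present in 42.2% of 32851 such windows. GGGCGG matched 5 times in the Ski window and 5 times in the Tgfb1 window, not in that of Tgfbr2, and in 32.7% of all windows. The G+C content was 58.4% for Tgfbr2, 87.6% for Ski and 75.2% for Tgfb1, against a median of 52.4%.

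All 9 genes passed the filter on low values (10 normalised reads in at least 2 libraries), and their lowest value in any library was 216. Per kilobase of merged coding-transcript exon, Tgfbr2 had the highest mean level of the 9 in CD4 PBS (2147 ± 63 normalised reads per kilobase, SD), CD8 PBS (1594 ± 121), CD4 DTx (1098 ± 382) and CD8 DTx (1059 ± 515). In Treg PBS it ranked 4th, at 534 ± 240, behind Skil at 889 ± 98, Tgfb1 at 858 ± 257 and Smad4 at 675 ± 301. The Treg PBS ranges of these 4 genes overlapped, those of Tgfbr2 (329 to 798) and Skil (797 to 993) at their ends alone. In CD4 PBS both Tgfbr2 libraries were above those of the next gene, Smad4, whereas in the other Tconv groups the ranges of these 2 genes overlapped. Smad3 was last in Treg PBS (72.8 ± 32.7) and in CD4 PBS (192 ± 107), where Tgfbr1 stood beside it (191.6 ± 5.9). Smad7 was last in CD4 DTx (125 ± 87) and CD8 DTx (115 ± 95) but ranked 5th in CD4 PBS (520.3 ± 124) and CD8 PBS (493 ± 213).

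**Figure D1:**
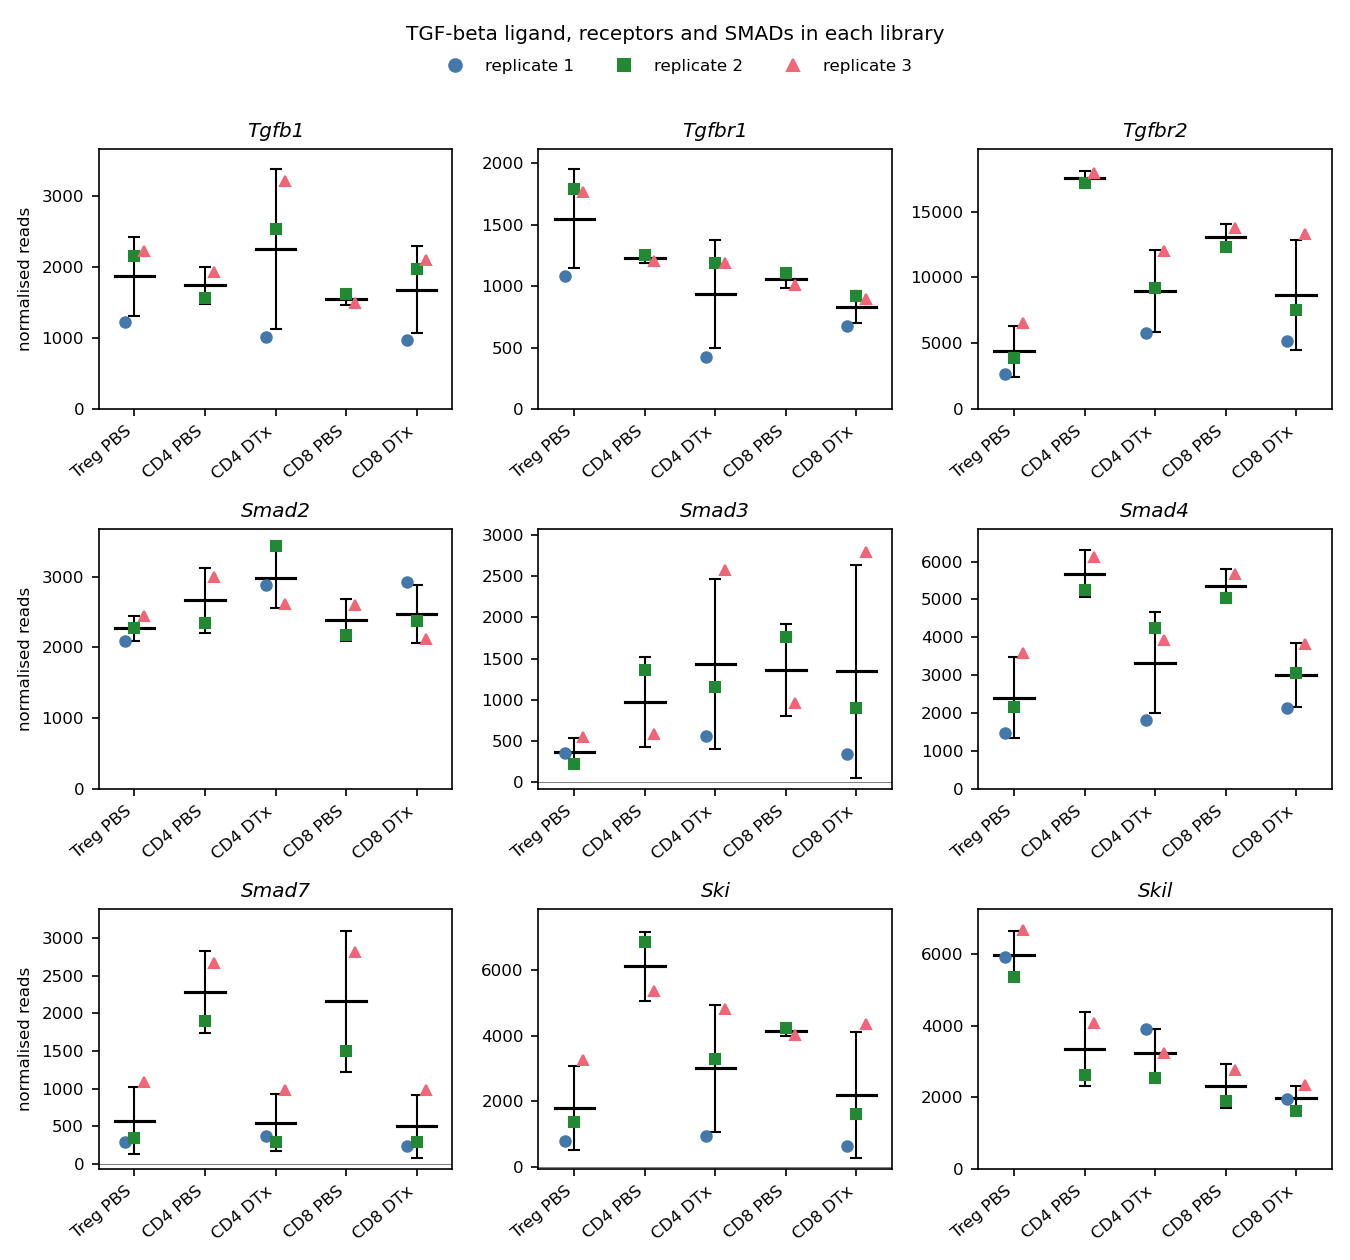
Normalised reads (y axis, linear from 0) of the 9 genes in the 13 libraries, by group (x axis). Points are libraries, shaped by replicate number, the bar is the group mean and the whisker 1 SD. Tgfbr2, Smad4 and Smad7 sit highest in CD4 PBS and CD8 PBS, and Skil sits highest in Treg PBS, where its 3 libraries lie between 5353 and 6670.1.

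The first question was how Treg cells differ from Tconv cells in tumors that keep their Treg cells. Treg PBS held less Tgfbr2, Smad4 and Smad7 and more Skil than CD4 PBS. These 4 of the 9 genes passed limma's test, a linear model of log2(normalised reads + 1) with pooled variance, at a Benjamini-Hochberg adjusted p under 0.05, 3 lower and 1 higher, where 20.4% of the 12667 genes tested passed, 13.5% higher and 6.91% lower. The median log2 fold change of the 9 genes was -1.33 against 0.01 over all genes tested. The libraries of the 2 groups did not overlap for 6 of the 9 genes, 5 of them lower in Treg PBS, while this held for 56.7% of all genes. DESeq2 on the recovered reads called the same 4 genes, and 3270 of the 12667 genes tested. By edgeR Tgfbr2 and Smad4 were called, and 2135 of the genes tested. Against CD8 PBS, Tgfbr2 was lower and Skil higher. These 2 of the 9 passed, where 18.7% of genes did, 11.9% higher and 6.75% lower, and the libraries of 6 genes did not overlap, as for 58% of all genes.

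The second question was what DTx, which kills Foxp3+ cells, changed in the remaining cells. In CD4 DTx against CD4 PBS 0 of the 9 genes passed limma's test, where 12.7% of genes did (8.64% higher and 4.08% lower). At an unadjusted p under 0.05 there were 2 of the 9 and 26.3% of all genes, DESeq2 on the recovered reads called 1 and edgeR 0. The libraries did not overlap for 5 genes, all lower in CD4 DTx, and for 46.3% of all genes. In CD8 DTx against CD8 PBS 0 of the 9 passed, where 10.9% of genes did (7.4% higher and 3.47% lower), with 1 of the 9 and 26.3% of all genes at an unadjusted p under 0.05, 1 by DESeq2 and 0 by edgeR. The libraries did not overlap for 3 genes, all lower in CD8 DTx, and for 43.6% of all genes. With the replicate number added to limma's model as a block, Smad7 and Tgfbr2 passed in CD4 DTx and Smad7 in CD8 DTx against PBS. A test of whether the DTx effect differed between CD4+ and CD8+ cells called 0 of the 9 by limma, edgeR and DESeq2 and 0 at an unadjusted p under 0.05 (0.0474% of genes passed, and 4.05% did so unadjusted), with differences in log2 fold change from -0.33 to 0.87 and SEs from 0.29 to 1.14.

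DTx-treated Tconv cells were also set against Treg PBS. Skil was lower in both, the only 1 of the 9 to pass limma's test in either comparison. In CD4 DTx against Treg PBS 7.91% of genes passed, 3.36% higher and 4.55% lower. In CD8 DTx against Treg PBS 8.6% passed, 3.88% higher and 4.71% lower. Between CD4+ and CD8+ cells 0 of the 9 passed limma's test in PBS (1.08% of genes did, and 0 of the 9 passed at an unadjusted p under 0.05, as 6.53% of genes did, by edgeR or by DESeq2) and 0 after DTx (1.64% of genes did, with 1 of the 9 and 11.4% of genes at an unadjusted p under 0.05, 0 by edgeR and 0 by DESeq2). These comparisons share libraries, the PBS groups above all, so each is described by its own values.

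**Figure D2:**
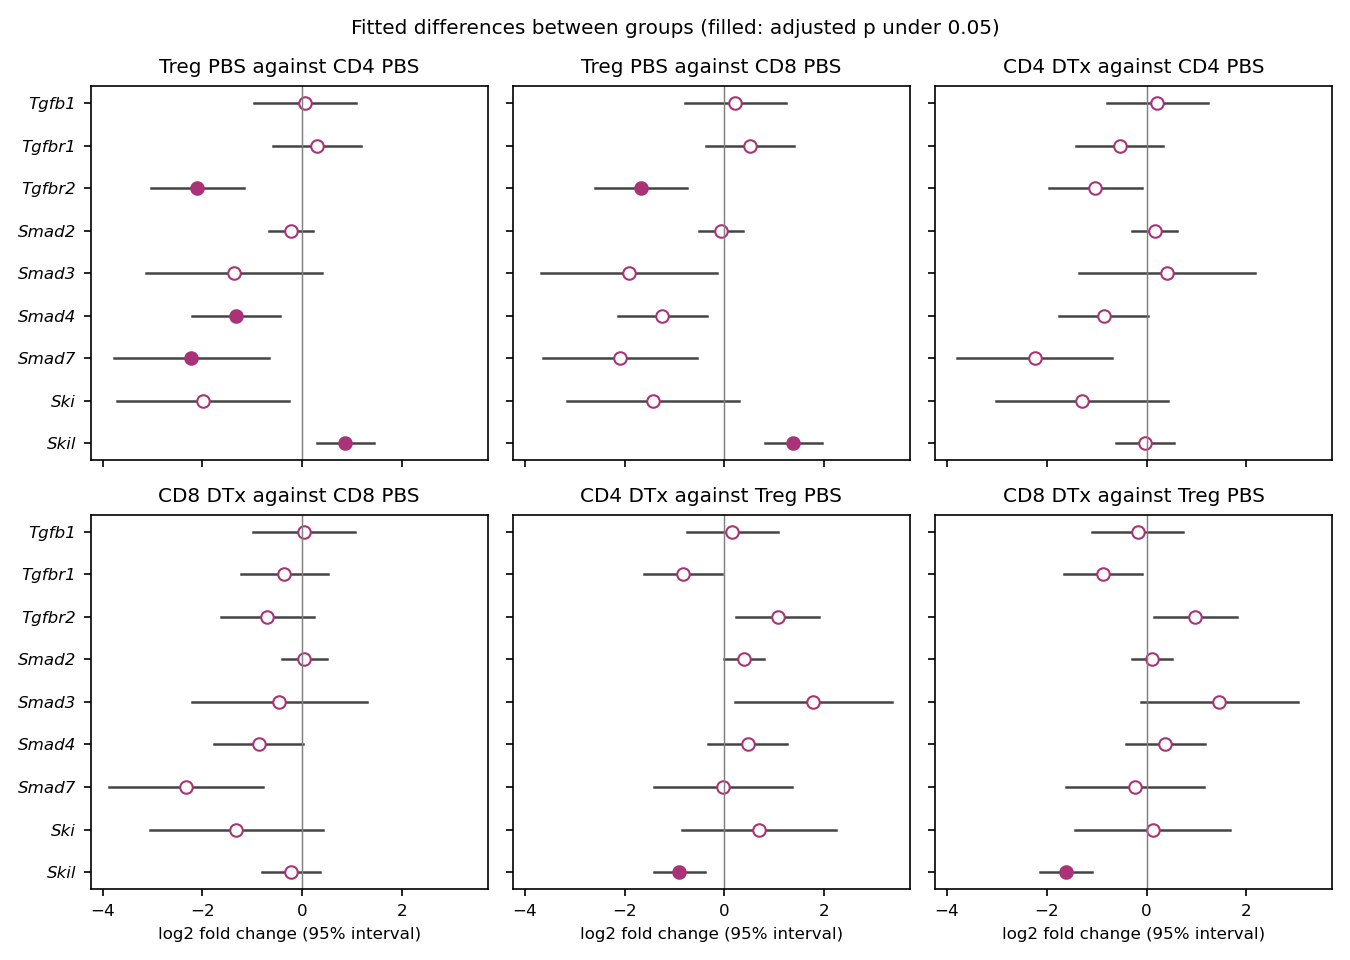
Fitted log2 fold changes (x axis, on the log2(value + 1) scale) of the 9 genes (y axis) in 6 comparisons, with 95% intervals. Filled points passed an adjusted p under 0.05 in limma: 4 in Treg PBS against CD4 PBS, 2 against CD8 PBS, 0 in each DTx against PBS panel, and Skil alone in each DTx against Treg PBS panel.

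The ligand gene did not pass limma's test in any comparison. Tgfb1 stood at 1220.15, 2158 and 2219 normalised reads in Treg PBS replicates 1, 2 and 3, and at 1558 and 1928 in CD4 PBS replicates 2 and 3. In CD4 DTx it stood at 1007, 2529 and 3212, in CD8 PBS at 1616 and 1485, and in CD8 DTx at 974, 1963 and 2092. Replicate 1 was the lowest library in each group of 3, and every pair of groups compared overlapped. The log2 fold change of Treg PBS against CD4 PBS was 0.06 (95% interval -0.96 to 1.07), and that of CD4 DTx against CD4 PBS was 0.22 (-0.80 to 1.23). Differences of up to about 1 log2 unit either way were therefore not excluded. With the libraries numbered 1 left out, an alternative chosen after seeing the data, Tgfb1 was 0.72 log2 units higher in CD4 DTx than in CD4 PBS (limma, adjusted p = 0.0417).

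Around the ligand, a list of 14 further genes for TGF-beta isoforms, latency and activation had 11 in the table. In Treg PBS against CD4 PBS 4 were higher and 0 lower (1 and 0 without the libraries numbered 3, 4 and 0 without those numbered 1). Lrrc32 (GARP, which tethers latent TGF-beta to the Treg surface) averaged 2737 ± 794 (SD) in Treg PBS but stood at 8.20 and 17.8 in the CD4 PBS libraries. Itgb8, the integrin chain that releases active TGF-beta, averaged 1241 ± 235 in Treg PBS and was at 0 and 46.2 in the CD4 PBS libraries. Its partner chain Itgav averaged 3091 ± 927 against 543 ± 48, and the gelatinase gene Mmp9 1863 ± 503 against 45.8 ± 12.5. The same 4 genes were higher than in CD8 PBS (1 gene without the libraries numbered 3, 4 without those numbered 1), where Itgb8 and Mmp9 were at 0 in both libraries, so that they were at least 310.2-fold and 466-fold higher in Treg PBS against a floor of 3 reads per library. After DTx, Lrrc32 and Itgb8 stayed low in Tconv cells, at 14.1 ± 23.2 and 12.3 ± 21.3 in CD4 DTx and 68.9 ± 50.2 and 2.53 ± 2.42 in CD8 DTx. Mmp9 alone of the list passed in DTx against PBS (1 higher and 0 lower in each cell type also without the libraries numbered 3, and without those numbered 1 there were 2 higher in CD4+ and 1 in CD8+ cells), with 1105 ± 447 in CD4 DTx and 272 ± 84 in CD8 DTx, which was at least 67.9-fold above CD8 PBS.

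The receptor genes differed in pattern. Tgfbr2, which encodes the ligand-binding chain, stood at 2692, 3901 and 6532 normalised reads in Treg PBS and at 17211 and 17941 in CD4 PBS. In CD8 PBS it stood at 12347 and 13747, in CD4 DTx at 5777, 9167 and 12025, and in CD8 DTx at 5155, 7518 and 13340.2. The highest Treg library was below the lowest library of both PBS Tconv groups. Relative to CD4 PBS, Tgfbr2 was 4.29-fold lower in Treg PBS (log2 fold change -2.10 ± 0.43 SE, limma, adjusted p = 0.00469) and relative to CD8 PBS 3.18-fold lower (-1.67 ± 0.43, adjusted p = 0.0175). The difference from CD4 PBS passed in every fit run, with adjusted p between 5.19e-05 and 0.0454, and was -2.41 without the libraries numbered 3 (adjusted p = 0.0454) and -1.80 without those numbered 1 (0.00725). That from CD8 PBS was lost without Treg PBS replicate 1 (adjusted p = 0.0648), Treg PBS replicate 2 (0.0514), CD8 PBS replicate 2 (0.0752) or CD8 PBS replicate 3 (0.133), and was -1.93 without the libraries numbered 3 (0.0879) and -1.37 without those numbered 1 (0.0236).

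After DTx the mean Tgfbr2 levels of Tconv cells lay between those of the PBS Tconv and Treg groups. CD4 DTx libraries were all below CD4 PBS, with a log2 fold change of -1.03 ± 0.43 that did not pass (limma, adjusted p = 0.146). CD8 DTx overlapped CD8 PBS through replicate 3, with -0.70 ± 0.43 (adjusted p = 0.316). Against Treg PBS the values were 1.07 ± 0.38 in CD4 DTx (adjusted p = 0.116) and 0.97 ± 0.38 in CD8 DTx (adjusted p = 0.168), with overlapping libraries in each case. A term for sex marked the libraries numbered 3 alone, so sex could not be told apart from other traits of those libraries. With this term, an alternative chosen after seeing the data, limma's adjusted p against Treg PBS was 0.032 in CD4 DTx and 0.0472 in CD8 DTx.

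Tgfbr1, the signalling kinase chain, stood at 1083, 1791 and 1769 normalised reads in Treg PBS. It stood at 1256 and 1202 in CD4 PBS, with CD8 PBS at 1106 and 1008. It stood at 425, 1189 and 1190.5 in CD4 DTx and at 679, 917 and 896 in CD8 DTx. All CD8 DTx libraries were below all Treg PBS libraries and below both CD8 PBS libraries, and all CD4 DTx libraries were below both CD4 PBS libraries. None of these differences passed limma's test. CD8 DTx against Treg PBS gave a log2 fold change of -0.87 ± 0.36 (adjusted p = 0.195), and without the libraries numbered 1 it was -0.97 (adjusted p = 0.011).

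Of 11 other receptor genes of the family, 9 were in the table. In Treg PBS against CD4 PBS 2 were higher and 1 lower (0 and 0 without the libraries numbered 3, 2 and 2 without those numbered 1). Tgfbr3, the coreceptor betaglycan, had 0 to 129.5 normalised reads (Treg PBS), 3898 to 4441 (CD4 PBS), 1072 to 1410.3 (CD8 PBS), 181 to 834 (CD4 DTx) and 56.4 to 262.5 (CD8 DTx), and was lower in Treg PBS than in both PBS Tconv groups (log2 fold change -7.47 and -5.71). The bone morphogenetic protein receptor genes Bmpr1a (134.9 ± 11.5 against 5.94 ± 8.4) and Bmpr2 (75.3 ± 40.4 against 4.78 ± 6.8) were higher in Treg PBS than in CD4 PBS. Eng, the coreceptor endoglin, was at 459 and 463 in CD8 PBS and at 5.54 or below in every other library, so it was at least 130.5-fold lower in Treg PBS than in CD8 PBS, and it fell in CD8 DTx, where 2 libraries were at 0. In CD4 DTx against CD4 PBS only Bmpr2 of this list passed, with 115.5 ± 110.5 against 4.78 ± 6.8. Without the libraries numbered 3, fits had 1 library in each PBS Tconv group, and calls over all genes fell as well. The calls of Eng, Bmpr2 and Tgfbr3 in Treg PBS against CD8 PBS were then lost. So were those of Bmpr2 in CD4 DTx and Eng in CD8 DTx against PBS. Without the libraries numbered 1 the counts of the list were 1 higher and 2 lower in Treg PBS against CD8 PBS, 1 and 1 in CD4 DTx and 0 and 3 in CD8 DTx against PBS.

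Among the transducers, Smad4 followed the order of Tgfbr2. The common partner Smad4 stood at 1482, 2164 and 3593 normalised reads in Treg PBS. PBS-treated CD4+ cells had 5246 and 6124, and PBS-treated CD8+ cells 5049 and 5665. After DTx it stood at 1809, 4259.6 and 3927 in CD4+ cells and at 2144, 3064 and 3813 in CD8+ cells, in each case below both PBS libraries of the same cell type. Relative to CD4 PBS it was 2.51-fold lower in Treg PBS (log2 fold change -1.33 ± 0.41, limma, adjusted p = 0.038). The log2 fold change was -1.24 ± 0.41 against CD8 PBS (adjusted p = 0.0525), -0.86 ± 0.41 in CD4 DTx against CD4 PBS (0.203) and -0.87 ± 0.41 in CD8 DTx against CD8 PBS (0.199). The call against CD4 PBS was lost without Treg PBS replicate 1 (adjusted p = 0.132), Treg PBS replicate 2 (0.0911), CD4 PBS replicate 2 (0.124) or CD4 PBS replicate 3 (0.194), and was -1.55 without the libraries numbered 3 (0.184) and -1.02 without those numbered 1 (0.0239).

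Smad2 was the steadiest of the 9 genes. It stood at 2094, 2273 and 2443 normalised reads in Treg PBS, at 2342 and 2990.1 in CD4 PBS, at 2879, 3434 and 2617 in CD4 DTx, at 2179.6 and 2598 in CD8 PBS and at 2929, 2373 and 2121 in CD8 DTx. The groups overlapped except CD4 DTx, which lay above Treg PBS (log2 fold change 0.38 ± 0.18, limma, adjusted p = 0.254). Its 95% interval ran from -0.29 to 0.61 in CD4 DTx against CD4 PBS and from -0.40 to 0.49 in CD8 DTx against CD8 PBS.

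Smad3, the other receptor-regulated SMAD here, had the largest standard errors of the 9 genes. It stood at 349.7, 216 and 546 normalised reads in Treg PBS, at 1361 and 589 in CD4 PBS, at 565, 1154 and 2578 in CD4 DTx, at 1760.4 and 965.1 in CD8 PBS and at 339.97, 896 and 2797 in CD8 DTx. Every Treg PBS library was below every CD4 PBS, CD4 DTx and CD8 PBS library, whereas CD8 DTx overlapped. The log2 fold change of Treg PBS was -1.37 ± 0.81 against CD4 PBS (limma, adjusted p = 0.247) and -1.91 ± 0.81 against CD8 PBS (adjusted p = 0.118), and that of CD4 DTx against Treg PBS was 1.78 ± 0.72 (adjusted p = 0.169). None passed. Of the other SMAD genes, 2 of 4 were in the table, and Smad1, a transducer of bone morphogenetic proteins, passed in 4 comparisons. Its mean was 1373 ± 235 in CD4 PBS and 1212 ± 342 in CD8 PBS, and it was lower in Treg PBS (403 ± 182), in CD4 DTx (468 ± 231, log2 fold change -1.69) and in CD8 DTx (275 ± 71, log2 fold change -2.14). Without the libraries numbered 3 Smad1 passed in 0 of these 4 comparisons, and without those numbered 1 the difference between CD4 DTx and CD4 PBS was lost.

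Smad7, the inhibitory SMAD, showed the largest log2 fold changes of the 9 genes in the 4 comparisons with the PBS Tconv groups. It stood at 289, 352 and 1096 normalised reads in Treg PBS, at 368, 293 and 986 in CD4 DTx and at 238, 291 and 985 in CD8 DTx. In the PBS Tconv groups it stood at 1894 and 2663 in CD4+ cells and at 1500.4 and 2818 in CD8+ cells. Every Treg and DTx library was thus below all 4 PBS Tconv libraries, and replicate 3 was the highest of each group. Relative to CD4 PBS, Smad7 was 4.66-fold lower in Treg PBS (log2 fold change -2.22 ± 0.71, limma, adjusted p = 0.0452). Its value for Treg PBS against CD8 PBS was -2.09 ± 0.71 (adjusted p = 0.0597), that of CD4 DTx against CD4 PBS -2.24 ± 0.71 (0.0594) and that of CD8 DTx against CD8 PBS -2.33 ± 0.71 (0.0567), so these 3 missed the threshold. DESeq2 on recovered reads called all 4 (adjusted p between 0.0274 and 0.0366) and edgeR none (0.0793 to 0.0986).

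These Smad7 values moved with the libraries numbered 3, which also had the highest Fos of each group. Without those libraries the log2 fold change was -2.57 in Treg PBS against CD4 PBS (limma, adjusted p = 0.0247), -2.23 in Treg PBS against CD8 PBS (0.0454), -2.52 in CD4 DTx against CD4 PBS (0.0366) and -2.51 in CD8 DTx against CD8 PBS (0.0575), in fits that had 1 library in each PBS Tconv group and assumed it to vary like the others. Without the libraries numbered 1 it was -1.85 in Treg PBS against CD4 PBS (adjusted p = 0.135). The call against CD4 PBS was also lost without Treg PBS replicate 1 (0.145), Treg PBS replicate 2 (0.124), CD4 PBS replicate 2 (0.129) or CD4 PBS replicate 3 (0.225). Leaving out replicate 3 of CD4 DTx or of CD8 DTx brought their differences past the threshold (adjusted p = 0.0306 and 0.0131). With the term for sex, which marked the libraries numbered 3 alone, all 4 differences lay between -2.09 and -1.86 (limma, adjusted p from 0.00134 to 0.00236).

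Ski and Skil, which encode related corepressors, had different patterns. Ski stood at 803, 1355 and 3249 normalised reads in Treg PBS, at 6856 and 5366 in CD4 PBS, at 953, 3275 and 4795 in CD4 DTx, at 4223 and 4026 in CD8 PBS and at 645, 1613 and 4342 in CD8 DTx. Its Treg libraries were all below both PBS Tconv groups, and its spread within the groups of 3 exceeded 4-fold. The log2 fold change was -1.99 ± 0.79 in Treg PBS against CD4 PBS (limma, adjusted p = 0.0961) and -1.44 ± 0.79 against CD8 PBS (0.223), and neither passed. Without Treg PBS replicate 3 the difference from CD4 PBS was -2.54 (adjusted p = 0.0487).

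Skil stood at 5909, 5353 and 6670.1 normalised reads in Treg PBS, at 2617 and 4073 in CD4 PBS, at 3913, 2549 and 3242 in CD4 DTx, at 1892 and 2749.9 in CD8 PBS and at 1939, 1628 and 2339 in CD8 DTx. Every Treg library was above all 10 Tconv libraries. Treg PBS had 1.82-fold more Skil than CD4 PBS (log2 fold change 0.87 ± 0.26, limma, adjusted p = 0.0369) and 2.61-fold more than CD8 PBS (1.38 ± 0.26, adjusted p = 0.00367). Against Treg PBS it was 1.87-fold lower in CD4 DTx (-0.90 ± 0.24, adjusted p = 0.0372) and 3.06-fold lower in CD8 DTx (-1.61 ± 0.24, adjusted p = 0.00112). DTx against PBS gave -0.04 in CD4+ cells (95% interval -0.61 to 0.54) and -0.23 in CD8+ cells (-0.80 to 0.35), so neither interval reached a 2-fold change.

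The Skil differences from the CD8+ groups held more widely than those from the CD4+ groups. That of CD8 DTx from Treg PBS passed whichever library was left out and was -1.66 without the libraries numbered 3 (limma, adjusted p = 0.0668) and -1.61 without those numbered 1 (0.0151). That of Treg PBS from CD8 PBS was lost without CD8 PBS replicate 2 (1.11, adjusted p = 0.0542) and was 1.57 without the libraries numbered 3 (0.0715) and 1.39 without those numbered 1 (0.0165). The difference from CD4 PBS was lost without any 1 Treg library (adjusted p from 0.0576 to 0.0837) and without CD4 PBS replicate 2 (0.55, adjusted p = 0.325), and was 1.10 without the libraries numbered 3 (0.107) and 0.87 without those numbered 1 (0.0788). That of CD4 DTx from Treg PBS was lost without any 1 Treg library (0.0744 to 0.104), without CD4 DTx replicate 2 (0.128) and without CD4 DTx replicate 3 (0.0888), and was -0.83 without the libraries numbered 3 (0.227) and -1.05 without those numbered 1 (0.0877).

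After DTx Skil values differed between CD4+ and CD8+ cells, with all 3 CD4 DTx libraries above all 3 CD8 DTx libraries. The log2 fold change of 0.71 ± 0.24 did not pass without the replicate number (limma, adjusted p = 0.211). Libraries with the same number deviated together in these 2 groups, and with the replicate number as a block the same difference passed (adjusted p = 0.0248). In PBS the Skil libraries of CD4+ and CD8+ cells overlapped.

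The spread within groups was shared by several of the genes. Replicate 1 was the lowest library for 7 of the 9 genes in Treg PBS, 6 in CD4 DTx and 7 in CD8 DTx. Replicate 3 was the highest for 8, 6 and 7. Tgfb1, Tgfbr1, Tgfbr2, Smad4 and Ski were lowest in replicate 1 in all 3 groups. Skil was lowest in replicate 2 in all 3 groups, and Smad2 was lowest in replicate 3 of both DTx groups. The PBS Tconv groups had no replicate 1, so its low values entered one side alone of each comparison with them.

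**Figure D3:**
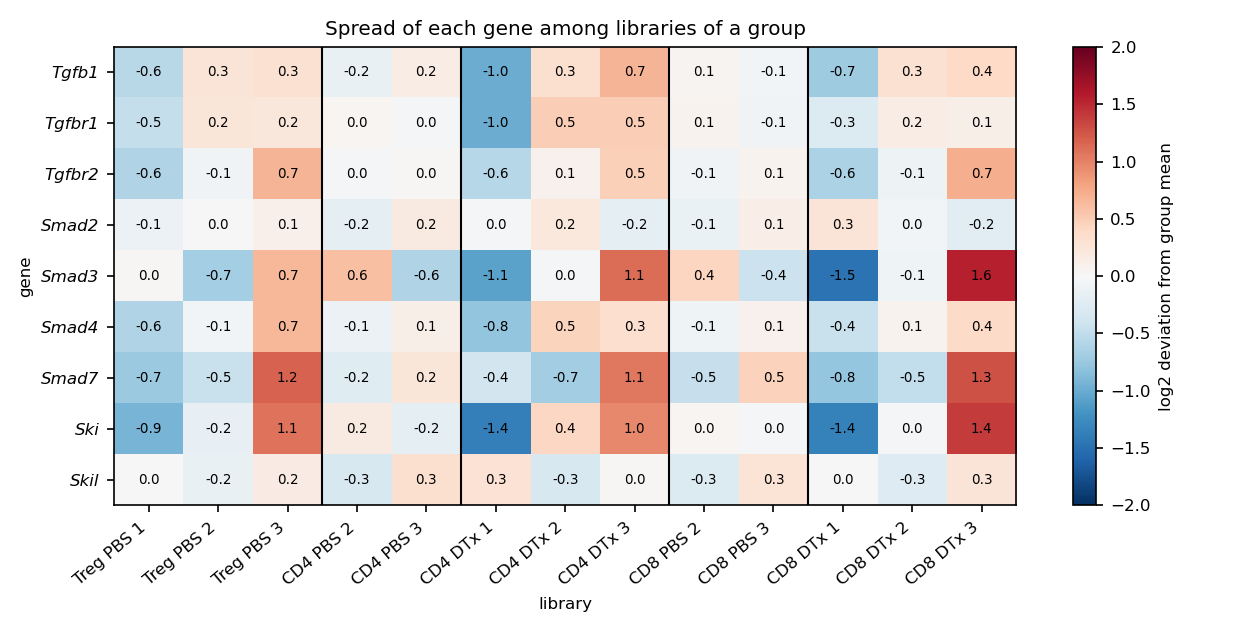
Deviation of each gene (y axis) in each library (x axis) from its group mean, in log2 units, shown by colour and by the printed value. Replicate 1 of Treg PBS, CD4 DTx and CD8 DTx is low and replicate 3 high for Tgfbr2, Ski and Smad4, and Smad3 in CD8 DTx spans the widest range.

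Across the 13 libraries, which share group and replicate differences, Tgfbr2, Smad4, Smad7 and Ski varied together. Pearson's r on the log2 scale, given as a description over 13 libraries, was 0.93 for Tgfbr2 with Smad4, 0.92 for Smad4 with Ski, 0.89 for Tgfbr2 with Ski and 0.80 for Tgfbr2 with Smad7. Skil was not part of this pattern, with r = -0.45 with Tgfbr2, -0.34 with Smad4, -0.15 with Ski and 0.01 with Smad7. Of all genes tested, the pattern of Ski was most like those of Pacs1, Bcl11b and Smurf1 (r = 0.99, 0.98 and 0.97), and Smurf1 encodes a ubiquitin ligase that acts with SMAD7 on the type I receptor. The pattern of Tgfbr2 was most like those of Gtpbp1, Il17ra and Xpo1 (all r = 0.97), that of Smad7 like those of Akap8, Ier5 and Ctdsp2 (all r = 0.95) and that of Skil like those of Birc3, Oxr1 and Phtf2 (r = 0.91 to 0.93). For Tgfb1 the nearest were Galnt1, Atp2a2 and Hipk2 (r = 0.88 to 0.90), for Tgfbr1 Dtnb, Poll and Zfp446 (0.93 to 0.94), for Smad2 Cnot7, Gpr183 and Isca1 (0.84 to 0.92), and for Smad3 Prex1, Lfng and Tmem127 (0.94 to 0.96).

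Of 16 listed negative and ubiquitin regulators, all in the table, Smurf2 passed in 4 comparisons. In Treg PBS 1 was higher and 1 lower against both CD4 PBS (1 and 2 without the libraries numbered 3 and also without those numbered 1) and CD8 PBS (0 and 1, and 1 and 2). The lower gene was Smurf2 in both. The higher gene was Pmepa1 against CD4 PBS (932 ± 192 against 315 ± 41, log2 fold change 1.55) and Fkbp1a against CD8 PBS (0.92). Fkbp1a did not pass against CD4 PBS (limma, adjusted p = 0.158). Smurf2, a ubiquitin ligase gene, had means of 1782 ± 33 normalised reads for CD4 PBS and 1606 ± 19 in CD8 PBS, and was lower in Treg PBS (448 ± 201), in CD4 DTx (635 ± 91, log2 fold change -1.50) and in CD8 DTx (469.5 ± 225, log2 fold change -1.87). Fkbp1a, whose product FKBP12 binds the type I receptor, had means of 8459 ± 692 (Treg PBS), 5880.3 ± 93 (CD4 PBS) and 11699 ± 2599 (CD4 DTx), and rose in CD4 DTx (log2 fold change 0.97) and in CD8 DTx (0.88) against PBS. Nedd4l fell in CD4 DTx (47.3 ± 57.9 against 1100.4 ± 68). In all, 1 rose and 2 fell in CD4 DTx (1 and 0 without the libraries numbered 3, 0 and 2 without those numbered 1), and 1 rose and 3 fell in CD8 DTx (0 and 0, and 0 and 2), where Bambi, a pseudoreceptor gene, and Tgif2, a corepressor gene, also fell (log2 fold changes -4.73 and -2.09).

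Among 10 of 11 listed SMAD partners in the table, Foxo1, a factor of resting T cells, was lower in Treg cells than in CD4 PBS (log2 fold change -1.30) and fell in CD4 DTx (-1.85) and CD8 DTx (-1.44). Its mean was 13146 ± 3525 normalised reads for CD4 PBS, against 5594 ± 2611 for Treg PBS and 3662 ± 872 for CD4 DTx. Runx3, a SMAD partner known from CD8+ lineage choice, rose in CD4 DTx (4055 ± 852 against 1617 ± 100), and Zeb2 rose in CD8 DTx (932 ± 361 against 134.5 ± 181). Of 6 genes of the TAK1 arm, a SMAD-independent branch, Tab2 alone passed, higher in Treg PBS than in CD4 PBS (log2 fold change 1.28) and CD8 PBS (1.60) and in CD8 DTx than in CD8 PBS (1.54). Without the libraries numbered 3, fits had 1 library in each PBS Tconv group, and calls over all genes fell as well. All these calls of Foxo1, Runx3, Zeb2 and Tab2 were lost in them. Without the libraries numbered 1, 1 gene of the TAK1 arm was higher in each of the 3 comparisons named for Tab2, while 0 SMAD partners passed in Treg PBS against CD4 PBS and in CD8 DTx against CD8 PBS, and 1 was higher and 2 lower in CD4 DTx against CD4 PBS.

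Genes known as targets of TGF-beta moved widely, in the direction of their lists in part only. Of 18 genes known to be induced in T or other cells, 16 were in the table. Some of them were also on the list of regulators above. In Treg PBS against CD4 PBS 9 were higher and 0 lower (5 and 0 without the libraries numbered 3, 7 and 0 without those numbered 1), with a median log2 fold change of 1.64 against 0.01 over all genes tested. Foxp3, which defined the sort, was among those higher, by at least 401-fold. Itgae (CD103) averaged 9762 ± 2458 normalised reads (Treg PBS) against 461 ± 467 (CD4 PBS), Bhlhe40 10816 ± 4683 against 1738 ± 367, and Cdkn2b, a cell cycle inhibitor gene, 60.9 ± 46.3 against 3.35 ± 0.87. Against CD8 PBS 5 were higher and 0 lower (4 and 0 without the libraries numbered 1). Fewer were higher without the libraries numbered 3, with 1 CD8 PBS library left. The median log2 fold change against CD8 PBS was 0.93, against 0.02 over all genes tested. Itgae, at 7745 ± 1090 in CD8 PBS, did not pass there.

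After DTx, 7 of these 16 genes rose and 0 fell in CD4+ cells (3 and 0 without the libraries numbered 3, 8 and 1 without those numbered 1), and 6 rose and 2 fell in CD8+ cells (2 and 0, and 7 and 1). In CD4 DTx against CD4 PBS the genes Itga1, the CD49a integrin chain (1117 ± 48 against 34.2 ± 32.9), Cxcr6, a homing receptor (91933 ± 35197 against 5433 ± 3275), Itgae (6872 ± 3913 against 461 ± 467) and Cdkn2b (log2 fold change 4.32) changed most. Itga1 and Cdkn2b also rose in CD8 DTx (log2 fold changes 4.66 and 3.68), while Itgae was at 7745 ± 1090 in CD8 PBS and 3376 ± 2156 in CD8 DTx and did not pass. The 2 that fell in CD8 DTx were Id3 (270.4 ± 124 against 1737 ± 513) and the immediate early gene Junb, the latter named after its value was seen. The median log2 fold change was 1.28 in CD4 DTx and 0.33 in CD8 DTx, against -0.04 and -0.03 over all genes tested.

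Of 15 genes known to be repressed by TGF-beta in T cells, 14 were in the table. In CD4 DTx against CD4 PBS 10 rose and 2 fell, with a median log2 fold change of 2.73, and in CD8 DTx against CD8 PBS 10 rose and 1 fell, with a median of 3.06, or 2.59 with a gene at the floor set to its bound. Without the libraries numbered 3, when 1 library was left in each PBS Tconv group, 1 rose and 0 fell in each, and without those numbered 1 the counts were 7 and 0 in CD4+ and 11 and 0 in CD8+ cells. Il4, the type 2 cytokine, averaged 472 ± 232 normalised reads in CD4 DTx, against 0.661 and 1.37, or 1 read each, in the CD4 PBS libraries. In CD8 DTx it averaged 23.5 ± 14.7, at least 5.87-fold above CD8 PBS. Gzmb (granzyme B) averaged 10797 ± 2672 in CD4 DTx against 339 ± 294 in CD4 PBS, and 83481 ± 19895 in CD8 DTx against 2926 ± 2622 in CD8 PBS. Gzma (granzyme A) stood at 1901 to 3246 in CD4 DTx against 128 and 340.3 in CD4 PBS, and rose by 6.02 on the log2 scale in CD8+ cells. Those that fell, named after their values were seen, were Myc in both and Prf1 (perforin) in CD4 DTx. CD4 DTx replicates 2 and 3 also carried Cd8a at 711 and 1302 normalised reads, against 103 in replicate 1, and the 2 NK cell markers summed to 175 to 534 in CD4 DTx against 45.6 to 275 in CD4 PBS. In CD8 DTx they summed to 309 to 5111, against 243 to 3069 in CD8 PBS. NK cells also express Gzma, Prf1, Eomes and S1pr5, and the part of such reads was not tested.

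In Treg PBS the repressed list was divided. Against CD4 PBS 3 of the 14 were higher and 2 lower (2 and 1 without the libraries numbered 3 and also without those numbered 1), and against CD8 PBS 3 were higher and 5 lower (1 and 2, and 3 and 4). Klrg1, an inhibitory lectin receptor gene, averaged 9647 ± 2598 (Treg PBS) against 95.8 ± 30.8 (CD4 PBS), and Gzmb 19141 ± 2576 against 339 ± 294. S1pr5, a receptor for tissue egress, was at 0 in every Treg PBS library and averaged 22.3 ± 16.1 in CD4 PBS, and Eomes was lower in Treg PBS than in CD8 PBS (36.9 ± 52.1 against 1741 ± 89).

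**Figure D4:**
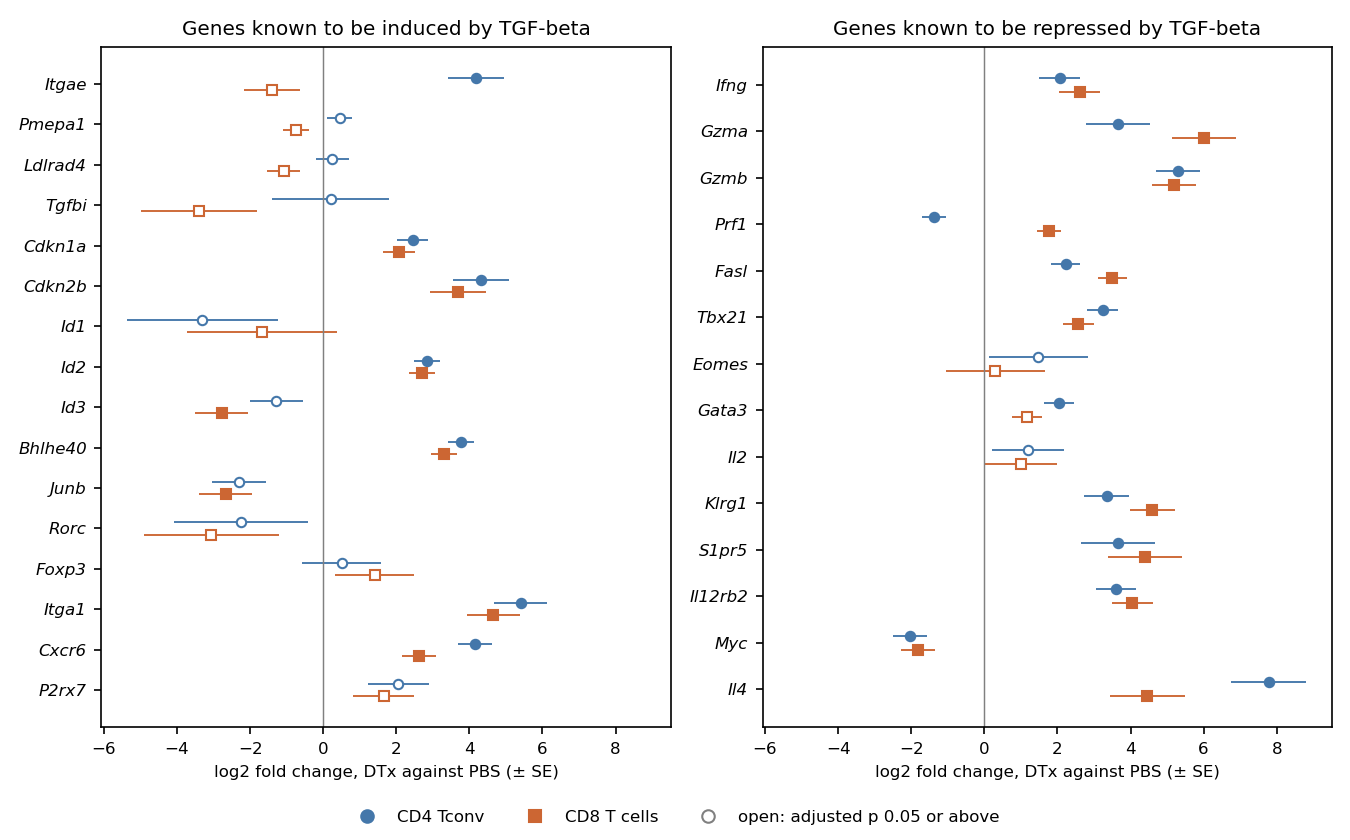
Fitted log2 fold changes (x axis, DTx against PBS, whiskers 1 SE) in CD4+ Tconv cells (circles) and CD8+ T cells (squares). The genes (y axis) are those known to be induced by TGF-beta in T or other cells (left) or repressed by it in T cells (right). Filled symbols passed an adjusted p under 0.05 in limma: on the right 10 genes rose in each cell type and Myc fell in both, and on the left 7 rose in CD4+ cells and 6 in CD8+ cells.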

How the data were processed

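Libraries from sorted cells were made with Smart-seq2 according to the labels, or with a SMARTer low-input kit according to the methods; neither kit marks strand. The authors checked (FastQC) and trimmed (Cutadapt) reads, aligned them with hisat2 to NCBIM37 (mm9), kept uniquely mapped reads and normalised to library size and intergenic reads. The deposited values are a read signal per gene, named FPM but summing to 21793496 to 27493693 per library. In each library 100% of values were whole multiples of 1 step (within 0.01 read), so reads were recovered (3 reads equal 1.98 to 4.10 units).

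Values were fitted as log2(value + 1) with limma 3.58.1 in R 4.3.3 (1 mean per group, 13 libraries, trended variance), over the 12667 genes at 10 units or more in at least 2 libraries. Adjusted p-values (Benjamini-Hochberg) cover all genes tested in each of 9 comparisons. The added 1 can make fold changes of low genes too small. Where a group had libraries at 0, fitted fold changes can instead exceed the ratio of means or the bound at the floor. For Tgfbr3 (Treg PBS against CD4 PBS) the fit gave a 178-fold difference, beside group means of 75.7 and 4170. For Itgb8 (Treg PBS against CD8 PBS) it gave 1226-fold, beside a bound of at least 310-fold. Such fitted values are therefore not lower bounds. edgeR 4.0.16 and DESeq2 1.42.0 on recovered reads were alternatives. The fit was tested on simulated data. The text names all 9 members, up to 4 called genes of each pathway list per comparison (largest fold changes), and for each member but Smad4, whose nearest genes are not reported here, the 3 genes of highest correlation. The members and lists were chosen with earlier results of these data known. Exon lengths came from GENCODE M21 (another build, matched by symbol) and promoters from RefSeq. Of the rows, 21 had symbols turned to dates and 53 genes were at 0 throughout. Same-numbered CD4 DTx and CD8 DTx libraries deviated together across genes (r = 0.36, 0.21 and 0.59), so their replicate block is given beside the result.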

Additional observations from a re-analysis of the deposited data

How the results depend on the processing

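Every difference of the 9 genes that passed the test kept its direction under the alternatives run. The number of the 9 genes called moved more. In Treg PBS against CD4 PBS, 4 by limma became 2 without the filter on low values, 2 with the study's 4-fold limit, 1 without the variance trend, 1 with the compared groups alone, 2 by edgeR, and 1 to 4 when a library was left out. Against CD8 PBS, 2 became 0 with the 4-fold limit, 4 by DESeq2 and 0 to 4 when a library was left out. For DTx against PBS, 0 became 1 by DESeq2 in both cell types, 1 with a pseudocount of 10 in CD8+ cells, and 0 to 1 when a library was left out in either. Against Treg PBS, 1 became 0 with the 4-fold limit in both DTx groups, and in CD4 DTx also 0 without the trend, 0 with the compared groups alone, 0 by edgeR, 2 by DESeq2 and 0 to 1 when a library was left out. Among the alternatives chosen after seeing the data was sex as a term, which marked the libraries numbered 3 alone. It called 2960 over all genes in Treg PBS against CD4 PBS, in place of 2581. Of the 9 genes it gave 4 in both Treg PBS comparisons, 1 in both DTx against PBS comparisons and 2 in both DTx against Treg PBS comparisons. Leaving out the libraries numbered 3 gave 2, 1, 1, 0, 0 and 0 in the same order, and leaving out those numbered 1 gave 2, 4, 1, 0, 0 and 2. Tgfb1 in CD4 DTx against CD4 PBS, which did not pass, ranged from -0.12 to 0.72 when a library was left out, and was -0.12 without CD4 DTx replicate 3. Where the cause of a change is not in the alternative's own construction, the cause was not tested.

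In CD4 DTx against CD8 DTx the replicate block called 1 gene in place of 0. The labels tie equal numbers to no animal, litter or day. The paper states that replicates were isolated on independent days, but not that equal numbers share a day. In the other comparisons the same-number correlations lay between -0.31 and 0.30. A hint from the data is that replicate 3 held Y-linked transcripts in all 5 groups. With Treg PBS, the same-number correlations of replicates 1, 2 and 3 were 0.25, 0.04 and 0.21 in CD4 DTx. In CD8 DTx they were 0.24, 0.01 and 0.30. The block gave 5 genes in Treg PBS against CD4 PBS, 6 against CD8 PBS, 2 in CD4 DTx and 1 in CD8 DTx against PBS, and 3 in each DTx group against Treg PBS, and lost none. It also raised the calls over all genes, from 2581 to 3210 in Treg PBS against CD4 PBS. Called with the block alone (limma, adjusted p) were Ski against CD4 PBS (0.0202) and Tgfb1 (0.0495), Tgfbr1 (0.0367), Smad4 (0.0068) and Smad7 (0.00287) against CD8 PBS in Treg PBS, Tgfbr2 (0.0252) and Smad7 (0.00223) in CD4 DTx and Smad7 (0.00258) in CD8 DTx against PBS, and Tgfbr1 (0.026 and 0.0212) and Tgfbr2 (0.00228 and 0.00308) in CD4 DTx and CD8 DTx against Treg PBS. Depth did not limit these genes, which held 199 to 27162 reads per library, but with 2 or 3 libraries a group 95% intervals were wide, as for Smad3 in Treg PBS against CD4 PBS (-3.13 to 0.39).

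Over all genes, calls numbered 2581 in Treg PBS against CD4 PBS, 2367 against CD8 PBS, 1612 and 1377 in CD4 DTx and CD8 DTx against PBS, and 1002 and 1089 against Treg PBS. They numbered 1005, 523, 491, 169, 93 and 152 without the libraries numbered 3, and 1292, 1192, 868, 692, 508 and 624 with the 4-fold limit. With the compared groups alone, 1612 became 983, 1377 became 239 and 1002 became 640. The replicate block made 1002 into 1739, DESeq2 made it 1543, and leaving out the libraries numbered 1 made it 650. When a library was left out, the counts ranged over 1189 to 2649, 762 to 2242, 658 to 1433, 202 to 2495, 567 to 894 and 708 to 963, in the order given.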
